A study of Mus musculus with 8 samples.

Results

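The genes described are 10 genes of de novo lipogenesis, Fasn, Scd1, Scd2, Acaca, Acacb, Acly, Elovl6, Me1, Thrsp and Slc25a1, chosen by name from 37046 gene-level features, of which 15184 were tested; all 10 members passed the filter on low counts. They were measured in white adipose tissue of female wild-type mice of the inbred strain C57BL/6J. The endostatin group had 4 libraries, after 50 mg/kg of endostatin into the tail vein, and the control group had 4 libraries, after phosphate-buffered saline (PBS). Tissue was collected 2 h after the injection in both groups, with food withheld in between, so all libraries share that short food withdrawal. Endostatin is a fragment of a collagen known to inhibit the growth of blood vessels. Libraries 1 and 2 of each group belong to batch 1 and libraries 3 and 4 to batch 2; the labels do not say what a batch is. The labels call the tissue epididymal although the mice are female, and they name no animal for a library, so the p-values reflect the spread among these libraries, part of which may be technical.

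De novo lipogenesis makes fatty acids from carbohydrate carbon. Citrate leaves the mitochondrion and is split to acetyl-CoA, acetyl-CoA is carboxylated to malonyl-CoA, fatty acid synthase builds palmitate, and elongases and desaturases turn palmitate into longer and monounsaturated fatty acids, with NADPH as the reductant. In liver and fat the pathway is known to be induced by insulin and carbohydrate feeding through the transcription factors SREBP-1c and ChREBP, the products of Srebf1 and Mlxipl, and to be low in fasting.

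The libraries held 15826783 to 23786594 estimated counts each. Adipocyte markers were present in every library: Adipoq, which encodes adiponectin, stood at 3394 to 4995 TPM in the endostatin group and 2416 to 4630 TPM in the control group (TPM is a level scaled to the library and corrected for transcript length). The description of endostatin 4 repeats the read file name of endostatin 3. The 10 genes differed widely between these libraries, with Fasn at 293.2 TPM in endostatin 4 and 3569 TPM in endostatin 3, so the values are not copies. This cannot show which sample endostatin 4 came from, and the labels were kept. Endostatin 4 and control 3 stood apart from the other libraries on the first principal component of all tested genes, with scores of 48.8 and 71.5 against -34.0 to -6.6.

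At 2 h none of the 10 genes differed between the endostatin and control groups beyond the spread between libraries. The spread was wide. Slc25a1, Acly, Acaca, Fasn, Elovl6 and Me1 were high or low together from library to library, Scd1, Scd2 and Thrsp followed them less closely, and Acacb did not covary with them. In endostatin 4, Fasn, Elovl6 and Acly stood at 293.2, 4.50 and 110.8 TPM, the lowest values of any library.

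Slc25a1 encodes the citrate carrier of the inner mitochondrial membrane, which exports citrate to the cytosol. It stood at 779.0, 700.1, 459.6 and 172.7 TPM in endostatin 1 to 4, and at 1027, 431.5, 569.6 and 630.8 TPM in control 1 to 4. The groups overlapped, with endostatin 4 lowest and control 1 highest. Acly encodes ATP citrate lyase, which splits that citrate. It had 1370, 1210, 796.7 and 110.8 TPM in endostatin 1 to 4 and 1467, 267.8, 1216 and 930.2 TPM in control 1 to 4. Endostatin 4 and control 2 were the low libraries for Acly, and the other 6 lay between 796.7 and 1467 TPM.

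Acaca encodes acetyl-CoA carboxylase 1, the cytosolic enzyme that makes malonyl-CoA for fatty acid synthesis. It had 1278, 1191, 684.0 and 231.2 TPM in endostatin 1 to 4, against 1413, 659.2, 804.9 and 901.2 TPM in control 1 to 4. Acacb encodes acetyl-CoA carboxylase 2, an enzyme of the outer mitochondrial membrane whose malonyl-CoA is known to restrain fatty acid entry into mitochondria. It had 57.7, 87.1, 51.9 and 134.4 TPM in endostatin 1 to 4, against 124.1, 120.5, 68.3 and 113.0 TPM in control 1 to 4. On the TPM scale Acacb thus had its highest level in endostatin 4, the library in which Acaca was lowest, and the ratio of Acaca to Acacb TPM was 1.72 there against 5.47 to 22.1 in the other 7 libraries. In CPM, which is not corrected for transcript length, Acacb had 236.8, 364.4, 190.4 and 454.1 in endostatin 1 to 4 and 618.0, 540.9, 268.3 and 514.2 in control 1 to 4, so endostatin 4 was highest of its group but below 3 controls.

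Fasn encodes fatty acid synthase, which builds palmitate. It stood at 6742, 6408, 3569 and 293.2 TPM in endostatin 1 to 4, and at 8100, 2858, 4282 and 5477 TPM in control 1 to 4. Its level in endostatin 4 was far below every other library, and the remaining 3 endostatin libraries lay within the control range. Elovl6 encodes the elongase that extends palmitate to stearate. It had 135.5, 144.8, 55.2 and 4.50 TPM in endostatin 1 to 4, and 186.6, 35.0, 79.6 and 72.6 TPM in control 1 to 4. This was the widest range of the 10 genes, 41.5-fold between control 1 and endostatin 4, against 27.6-fold for Fasn and 2.59-fold for Acacb.

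Scd1 and Scd2 encode stearoyl-CoA desaturases, which place a double bond in saturated fatty acids. Scd1 had 11122, 20746, 10374 and 4247 TPM in endostatin 1 to 4, and 23668, 9144, 7384 and 14627 TPM in control 1 to 4. Scd2 had 190.0, 164.1, 151.1 and 32.4 TPM in endostatin 1 to 4, and 161.2, 50.8, 234.0 and 136.1 TPM in control 1 to 4. Endostatin 4 was lowest for both genes, but control 3 was second lowest for Scd1 and highest for Scd2. The TPM ratio of Scd1 to Scd2 was 31.5 in control 3 and 58.5 to 180.0 in the other libraries. The genes are close relatives, and reads common to both are apportioned by Salmon, so the smaller Scd2 values are the less certain.

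Me1 encodes cytosolic malic enzyme, a source of NADPH. It had 1058, 912.1, 416.5 and 101.2 TPM in endostatin 1 to 4, against 1325, 425.1, 623.4 and 824.2 TPM in control 1 to 4. Thrsp encodes Spot 14, a small thyroid hormone responsive protein known to promote lipogenesis. It had 2157, 1779, 1841 and 596.3 TPM in endostatin 1 to 4, against 3116, 1503, 2187 and 2718 TPM in control 1 to 4. Thrsp varied less than Fasn, and in endostatin 4 it stood above Fasn, with a TPM ratio of Fasn to Thrsp of 0.492 against 1.90 to 3.60 elsewhere.

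**Figure D1:**
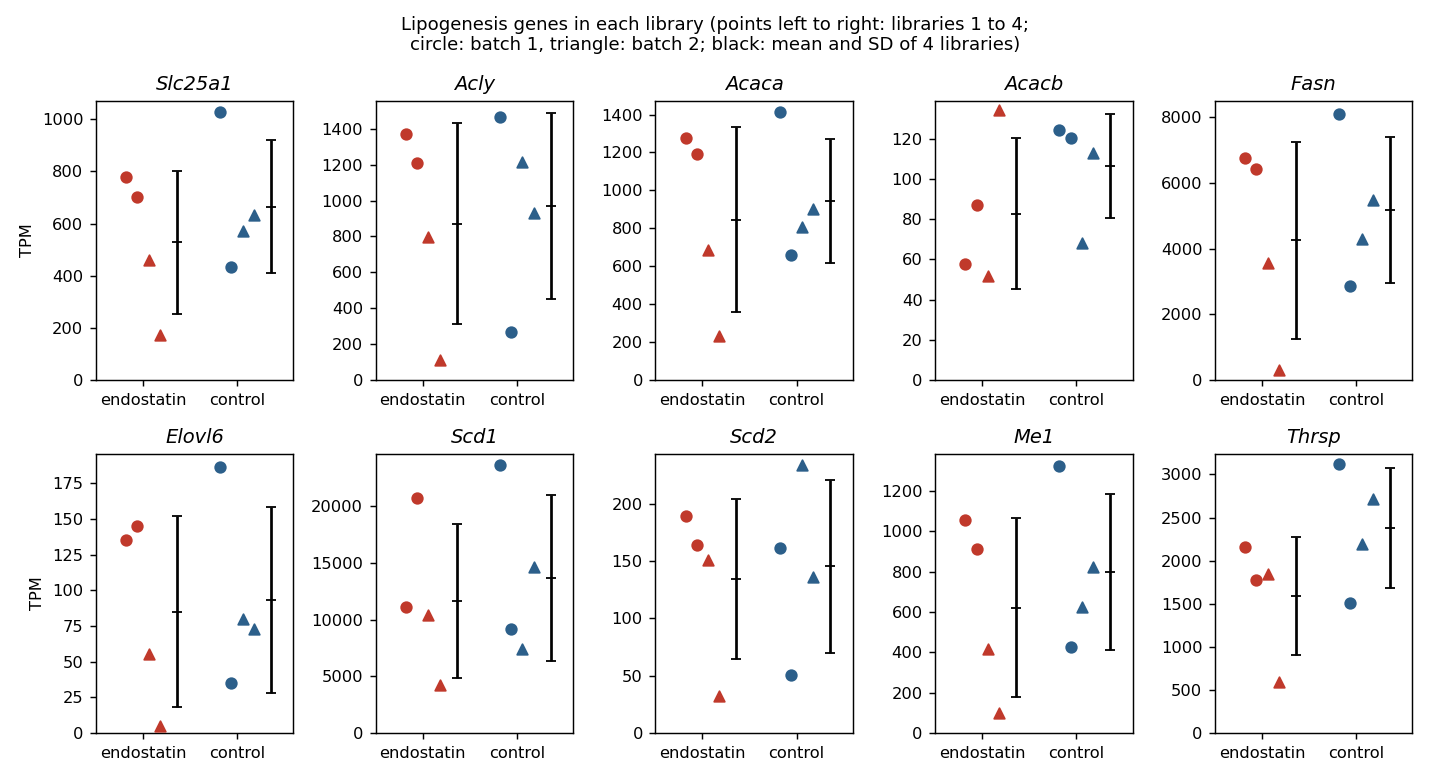
TPM of each lipogenesis gene in the 8 libraries, with endostatin in red and control in blue, batch 1 as circles and batch 2 as triangles; black bars are the mean and SD of 4 libraries. Endostatin 4 is lowest for 9 genes and highest for Acacb (134.4 TPM), and control 1 is highest for 8 genes.

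On the TPM scale the order of the genes was steady at the top. Scd1 was first in 8 of 8 libraries, with a mean level of 12664 ± 6644 TPM (SD, n = 8 libraries), and Fasn was second in 7 of 8, at 4716 ± 2493 TPM. Thrsp followed at 1987 ± 766 TPM, above Acly in 8 of 8 libraries. Acly, Acaca, Me1 and Slc25a1 averaged 921.0, 895.3, 710.7 and 596.3 TPM. Among these, Acly exceeded Acaca in 6 of 8 libraries and Me1 exceeded Slc25a1 in 5 of 8, differences within their spread. Scd2, Acacb and Elovl6 were the lowest, at 140.0, 94.6 and 89.2 TPM, and their order changed between libraries. Together the 10 genes held 6.91%, 8.04%, 4.56% and 1.35% of all estimated counts in endostatin 1 to 4, and 10.3%, 4.04%, 4.80% and 6.65% in control 1 to 4. The mean share was 5.21 ± 2.96% in the endostatin group and 6.46 ± 2.81% in the control group (SD, n = 4 each), a difference smaller than either SD.

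The genes were among the most variable in the tissue. Over the 8 libraries the SD of log2 CPM (counts scaled to the TMM-adjusted library size) was 1.82 for Elovl6, 1.59 for Fasn, 1.44 for Acly, 1.18 for Me1, 0.98 for Acaca and 0.97 for Scd2. It was 0.83 for Slc25a1, 0.82 for Scd1, 0.77 for Thrsp and 0.62 for Acacb. The median over the 9996 genes averaging 10 CPM or more was 0.19, and each of the 10 genes lay at or above the 96.1 percentile of them. Within groups the pooled SD was 1.90 for Elovl6 and 1.62 for Fasn, slightly above the SD over all libraries, and 0.72 for Thrsp and 0.55 for Acacb, slightly below it.

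The design sets endostatin against PBS at a single time. In edgeR's quasi-likelihood test with a batch term, 0 of the 10 genes passed an adjusted p of 0.05, and 0% of all 15184 tested genes did (0 genes, lowest adjusted p = 0.409). At an unadjusted p under 0.05 there were 485 genes and none of the 10; DESeq2 called 4 genes (0.0263%; 3 higher, 0.0198%, and 1 lower, 0.00659%) and limma-voom 0 (469 genes at an unadjusted p under 0.05), and 0 of the 10 were called by either. The 10 log2 fold changes, endostatin over control, lay between -0.67 and -0.18, with a median of -0.53, beside a median of -0.01 over all tested genes, of which 53.4% were negative. Because the genes vary together, 10 negative values are not 10 separate observations. No group of 4 lay wholly above or below the other for any of the 10 genes, which 1.64% of all tested genes did.

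Acacb had the smallest unadjusted p, with 311 ± 120 CPM in the endostatin group and 485 ± 151 CPM in the control group (SD, n = 4 each) and a log2 fold change of -0.61 ± 0.34 (SE; edgeR adjusted p = 1.00, unadjusted p = 0.107). Its 95% interval ran from -1.39 to 0.17. The value was -0.99 without endostatin 4 (unadjusted p = 0.00789, edgeR adjusted p = 1.00) and -0.96 in limma-voom with sample quality weights (unadjusted p = 0.00479, adjusted p = 0.618). Other alternatives brought it nearer 0: -0.42 with transcript length offsets, -0.43 without endostatin 1 and -0.49 without control 4. Without control 1 and control 4 it was -0.33. Thrsp had 995 ± 436 CPM in the endostatin group and 1533 ± 530 CPM in the control group (SD, n = 4 each), a log2 fold change of -0.67 ± 0.41 with an interval from -1.62 to 0.28. Fasn had 20227 ± 14244 CPM in the endostatin group and 25684 ± 12547 CPM in the control group (SD, n = 4 each), a log2 fold change of -0.59 ± 0.80, and its interval from -2.44 to 1.26 covers changes in both directions. Its value was -0.08 without endostatin 4, -0.33 without control 4, -0.98 without control 2 and -1.13 without endostatin 3. The log2 fold changes of the other members were -0.67 ± 0.57 for Me1, -0.55 ± 0.83 for Elovl6, -0.50 ± 0.40 for Slc25a1, -0.42 ± 0.49 for Acaca, -0.40 ± 0.51 for Scd1, -0.37 ± 0.78 for Acly and -0.18 ± 0.59 for Scd2. For comparison, the median half-width of the 95% interval over genes of at least 10 CPM was 0.30, so these genes were measured far less precisely as a group difference than most.

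The median of the 10 log2 fold changes depended on single libraries. It was -0.12 without endostatin 4, -0.29 without control 1, -0.34 without control 4 and -0.83 without control 2. Without endostatin 4 the values of Scd2 and Acly were 0.27 and 0.14. Within batch 1 the 10 log2 fold changes had a median of 0.10, with 4 of 10 negative, and ranged from -0.95 for Acacb to 0.58 for Scd2. Within batch 2, which holds endostatin 4, 10 of 10 were negative, with a median of -1.0 and a range from -1.38 for Me1 to -0.28 for Acacb. The batch by treatment interaction passed for 0 of the 10 genes in edgeR (lowest adjusted p = 0.997; 0% of all tested genes called, with 527 genes at an unadjusted p under 0.05, 0 of the 10 among them, while DESeq2 called 26 genes and 0 of the 10).

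**Figure D2:**
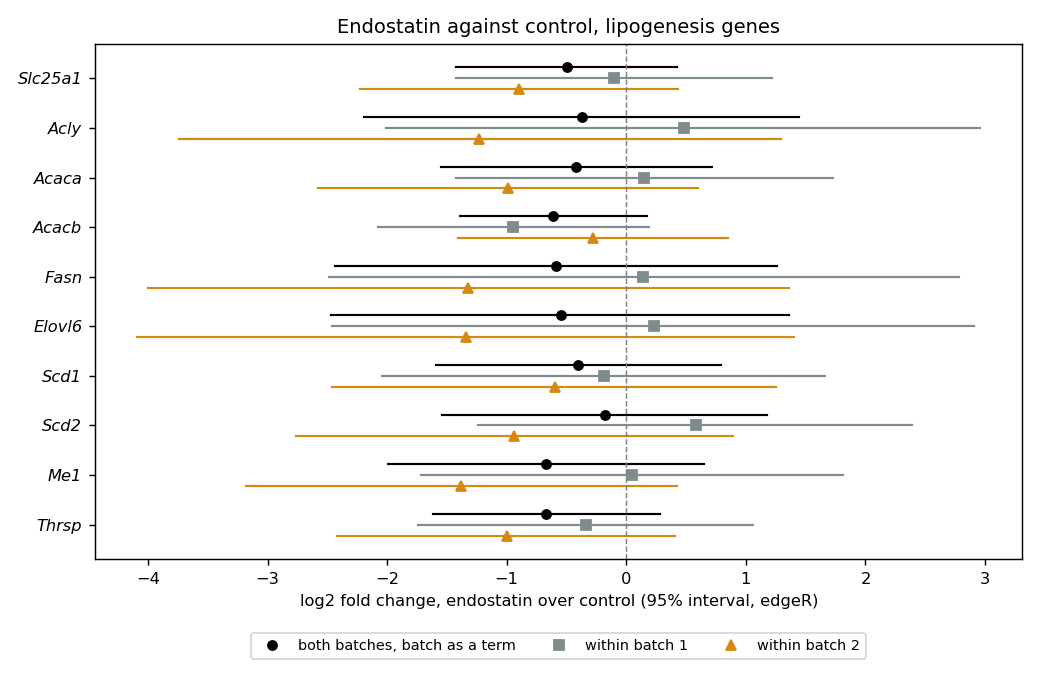
Log2 fold change of each lipogenesis gene, endostatin over control, with its 95% interval from edgeR: both batches (black), within batch 1 (grey) and within batch 2 (orange). Every interval includes 0; Acacb is the gene with its lower value in batch 1 (-0.95) and its value nearer 0 in batch 2 (-0.28).

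Between the batches, 0 of the 10 genes passed in edgeR's batch term, against 0.0395% of all tested genes (6 of 15184; 1 higher, 0.00659%, and 5 lower, 0.0329%). The batches did not overlap in CPM for 0 of the 10 genes and for 6.42% of all tested genes. The log2 differences, batch 2 over batch 1, were negative for 10 of 10, with a median of -0.90 beside 0.01 over all tested genes. Slc25a1 had the smallest p (-0.89 ± 0.40, unadjusted p = 0.0568, edgeR adjusted p = 0.511), and Elovl6 the largest difference (-1.54 ± 0.84). Scd2 had -0.15 ± 0.59 and Acacb -0.23 ± 0.34. Mitochondrially encoded genes held 2.13% to 3.31% of counts in batch 2 and 4.23% to 5.19% in batch 1, and their part in these differences was not tested.

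Across the 8 libraries Slc25a1, Acly, Acaca, Fasn, Elovl6 and Me1 followed each other closely. This grouping was not planned and leaves out the members that followed less closely, so high values within it partly follow from that choice. For the 15 pairs among these genes, Pearson's r of log2 CPM lay between 0.920 and 0.996 and Spearman's rho at 0.952 or above. Exact permutation p values, adjusted over all 45 pairs, were at most 0.00134 for r. The highest r was that of Acaca with Me1 (r = 0.996, rho = 0.976, exact permutation p = 4.96e-05 and 0.000397, adjusted p = 0.000372 and 0.00179). For Fasn with Acaca r was 0.976 and rho 1.00, with the exact permutation p of r at 2.48e-05 (also that of Me1 with Slc25a1), the smallest that 40320 orders of the libraries can give. When the 2 libraries farthest from the median of one gene of the pair were left out, endostatin 4 with control 1 or control 2, r in these 15 pairs lay between 0.728 and 0.994. After the group and batch means were removed, it was at least 0.961. Each batch holds 4 libraries, too few for a correlation within a batch.

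Scd1, Scd2 and Thrsp followed the others less closely once the extreme libraries were left out. Of the 36 pairs without Acacb, 35 passed an adjusted exact permutation p of 0.05 by Pearson's r (median 0.927, range 0.623 to 0.996) and 23 by Spearman's rho (median 0.845). Scd2 with Acly had r = 0.974 (rho = 0.810, exact permutation adjusted p = 0.00611 and 0.0426), but r = 0.463 without control 2 and endostatin 4. Of the 8 pairs of Scd2 with these genes, 7 had r under 0.5 without the 2 farthest libraries, as did 6 of those of Thrsp and 3 of those of Scd1, and these relations rest on those libraries. The 13 such pairs each included Scd1, Scd2 or Thrsp; Acly was in 3 of them, with those 3 genes. Scd1 with Scd2 was the one pair that did not pass (r = 0.623, rho = 0.310, exact permutation adjusted p = 0.141 and 0.562).

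Acacb did not covary with the other 9. Its r lay between -0.409 with Scd2 and 0.271 with Scd1, its rho between -0.357 and 0.286, and 0 of its 9 pairs passed (exact permutation, adjusted over 45 pairs). With the 2 farthest libraries left out these r values were -0.183 to 0.331, and after the group and batch means were removed they were negative in 9 of 9 pairs (median -0.545, range -0.687 to -0.037). With 8 libraries such values leave a wide margin. In endostatin 4, in which the other 9 genes were lowest, Acacb was the highest of its group in both TPM and CPM. Library totals, normalisation factors and tissue makeup are common to all genes of a library, so the r values describe these 8 samples and the genes are not independent replicates.

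**Figure D3:**
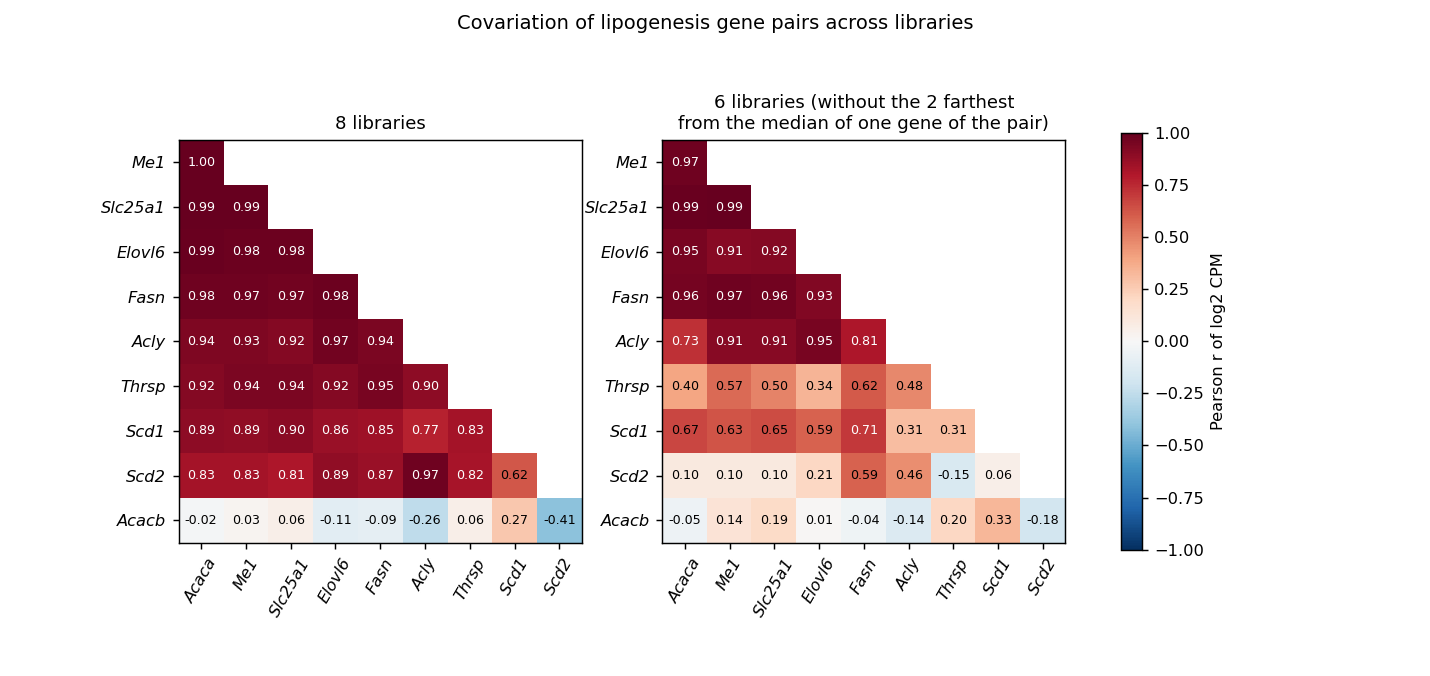
Pearson r of log2 CPM for each of 45 gene pairs over 8 libraries (left) and over the 6 left when the 2 libraries farthest from the median of one gene of the pair are removed (right). Acaca, Me1, Slc25a1, Elovl6, Fasn and Acly keep r of 0.728 or more, while most pairs with Scd2 and Thrsp fall below 0.5 and Acacb lies between -0.409 and 0.331.

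The start regions of 4 members are shown because they cover the gene with the highest count of CCAAT boxes (Fasn), a less variable member (Thrsp), the one member window with a CACGTG E-box (Slc25a1) and the gene that did not covary (Acacb). They run from 250 bases before to 50 bases after the RefSeq start in build GRCm38.p6, at chr11:120824498-120824797 on the minus strand for Fasn, chr7:97417501-97417800 on the minus strand for Thrsp, chr16:17928170-17928469 on the minus strand for Slc25a1 and chr5:114165268-114165567 on the plus strand for Acacb. Capitals mark CCAAT boxes (CCAAT or its reverse complement ATTGG), E-boxes (CACGTG) and TATA boxes (TATAA).
Fasn: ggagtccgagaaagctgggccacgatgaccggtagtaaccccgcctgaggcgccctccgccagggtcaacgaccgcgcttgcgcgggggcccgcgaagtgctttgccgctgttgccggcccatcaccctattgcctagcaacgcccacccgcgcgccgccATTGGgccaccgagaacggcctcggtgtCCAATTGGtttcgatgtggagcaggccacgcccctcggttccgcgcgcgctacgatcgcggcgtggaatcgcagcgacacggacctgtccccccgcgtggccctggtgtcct
Thrsp: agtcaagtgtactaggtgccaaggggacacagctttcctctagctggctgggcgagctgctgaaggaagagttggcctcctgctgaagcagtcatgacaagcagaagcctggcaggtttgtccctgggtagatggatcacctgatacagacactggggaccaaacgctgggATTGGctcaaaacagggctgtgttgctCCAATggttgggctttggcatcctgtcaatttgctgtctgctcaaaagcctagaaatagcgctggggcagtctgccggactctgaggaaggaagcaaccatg
Slc25a1: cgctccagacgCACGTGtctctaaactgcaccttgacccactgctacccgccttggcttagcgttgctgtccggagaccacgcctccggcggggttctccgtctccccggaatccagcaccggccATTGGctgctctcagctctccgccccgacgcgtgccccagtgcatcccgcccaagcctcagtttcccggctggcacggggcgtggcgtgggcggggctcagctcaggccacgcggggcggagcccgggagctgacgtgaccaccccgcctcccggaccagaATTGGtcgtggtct
Acacb: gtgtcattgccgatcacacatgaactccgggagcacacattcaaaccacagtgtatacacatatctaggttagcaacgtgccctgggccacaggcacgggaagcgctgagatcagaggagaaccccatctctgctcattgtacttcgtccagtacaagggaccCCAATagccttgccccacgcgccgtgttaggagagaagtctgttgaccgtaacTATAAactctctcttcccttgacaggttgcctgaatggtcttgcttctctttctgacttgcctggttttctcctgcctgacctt
The RefSeq promoter table matched 8 of the 10 members, with 9 windows, since Me1 has 2 starts; Scd1 and Scd2 were not matched. Searched on both strands, CCAAT was in 6 of the 9 windows (Acacb, Acly, Fasn, Me1, Slc25a1 and Thrsp), against 37.4% of all 32851 windows. Fasn had 3 matches, of which the copies on opposite strands in its second marked stretch overlap. CACGTG was in 1 window (Slc25a1; 7.15% of all windows), TATAA in 2 (Acaca and Acacb; 24.9%), and the GC box GGGCGG in 3 (Acly, Me1 and Slc25a1; 35.7%). The sterol regulatory element written as TCACNCCAC was in 0 of the 9 windows and 1.24% of all windows. These matches describe letters in these windows only. The RefSeq start used for Fasn is that of Fasn-201. Fasn-205, which held 72.0% to 80.6% of Fasn TPM, begins 452 bases downstream of it, outside the window. Thrsp-201 begins 180 bases upstream of the RefSeq start used for Thrsp, and Acacb-202 18983 bases upstream of that used for Acacb. The windows are therefore not centred on the start of the most abundant transcript for these 3 genes.

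Other genes were ranked by how like their pattern was to that of the 10. Likeness was Pearson's r over the 8 libraries with the mean of the 10 genes' centred log2 CPM, which stood at 0.56, 0.59, -0.17 and -2.17 in endostatin 1 to 4 and at 1.13, -0.42, 0.05 and 0.43 in control 1 to 4. Of 9763 protein-coding genes with at least 10 CPM, Acss2, which makes acetyl-CoA from acetate, was most alike (r = 0.997, and 0.981 without control 1 and endostatin 4). It had 464.1, 476.0, 276.8 and 46.3 CPM in endostatin 1 to 4, against 777.0, 173.7, 290.5 and 427.2 CPM in control 1 to 4. As for Fasn, endostatin 4 and control 2 were lowest and control 1 highest.

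After Acss2 came Gpd2, the mitochondrial glycerol-3-phosphate dehydrogenase (r = 0.994), Nsdhl of cholesterol synthesis (0.992), Tkt, the transketolase of the pentose phosphate pathway (0.991), and the mitochondrial carrier gene Slc25a35 (0.991). Pdhb, a subunit of pyruvate dehydrogenase, had 0.990, Fdps of isoprenoid synthesis 0.987, Gbe1, the glycogen branching enzyme, 0.986, Nkiras1 0.982 and Ndufa11, a subunit of respiratory complex I, 0.981. Without control 1 and endostatin 4 these 9 had r of 0.844 to 0.977. The members themselves ranked from 3 (Me1) to 316 (Scd2), and Acacb at 5370. Each member is part of the mean it was set against, so these ranks are partly fixed by construction. The genes most opposed were Adam17, a shedding protease (-0.988), Frmd6 (-0.986), Ctsh, a lysosomal protease (-0.970), and Npr1, a natriuretic peptide receptor (-0.969), all with a small SD of log2 CPM of 0.16 to 0.41.

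**Figure D4:**
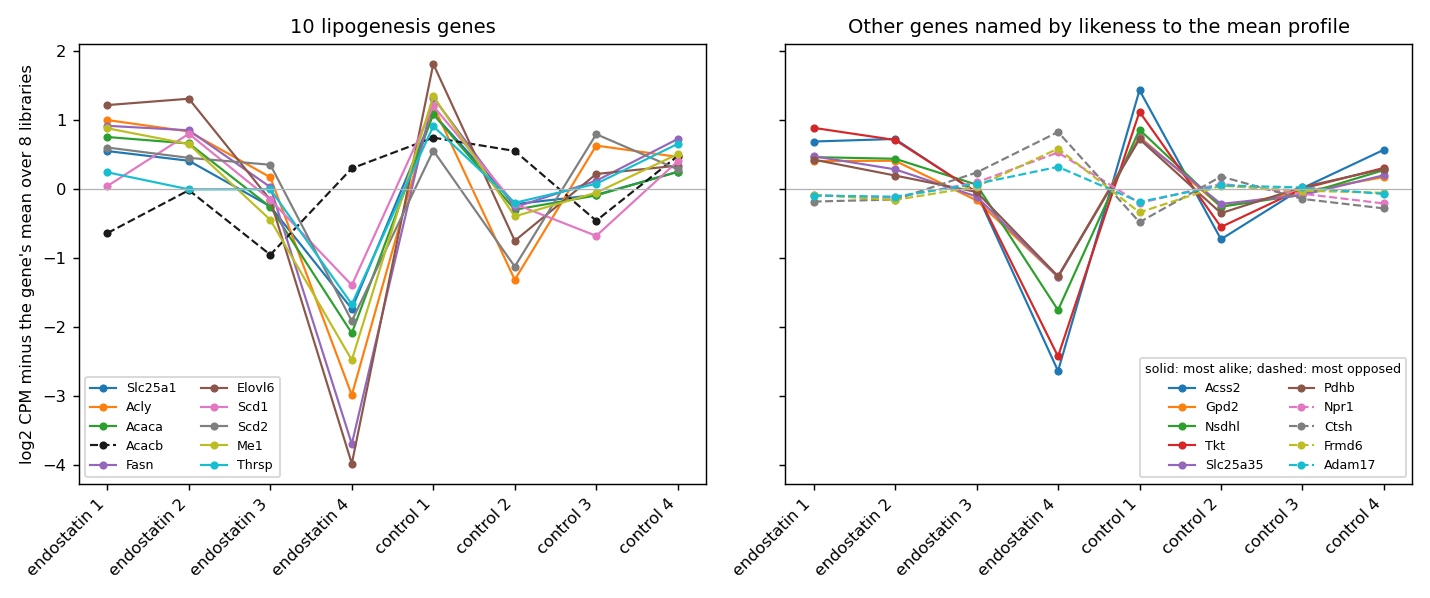
Log2 CPM of each gene minus its mean over the 8 libraries, endostatin 1 to 4 and then control 1 to 4: the 10 lipogenesis genes (left, Acacb dashed) and genes named by likeness to their mean (right). All lines on the left but that of Acacb drop in endostatin 4, and Acss2 and Tkt on the right drop with them.

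Neighbouring steps of the pathway were read from lists. In the endostatin comparison 0 genes of any of the following lists passed edgeR's test in either direction. Over all tested genes 53.4% had negative log2 fold changes. Genes of a list that vary together are not separate observations, so the counts of direction below were not tested. Of 15 genes that supply citrate and acetyl-CoA, 14 had negative log2 fold changes, with a median of -0.26; Mdh1, cytosolic malate dehydrogenase, had 32.4 ± 7.6 CPM in the endostatin group and 46.2 ± 12.9 CPM in the control group (-0.53 ± 0.19, unadjusted p = 0.0245, edgeR adjusted p = 1.00). Glud1, glutamate dehydrogenase, had a log2 fold change of 0.10 ± 0.14. Of this list, 12 of 15 genes had r above 0.8 to the mean profile, against 6.72% of all ranked genes, among them Slc25a10 (0.962), Pdha1 (0.951), Cs (0.931), Mpc1 (0.920) and Pcx (0.920). Their SD of log2 CPM ranged widely, from 0.35 for Cs and 0.45 for Pcx to 0.96 for Slc25a10 and 1.25 for Acss2.

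The NADPH list had 14 tested entries for 13 symbols, of which 10 were negative, with a median of -0.15. Me2, mitochondrial malic enzyme, had 23.6 ± 2.1 CPM in the endostatin group and 28.4 ± 1.1 CPM in the control group (-0.27 ± 0.09, unadjusted p = 0.0193, edgeR adjusted p = 1.00). The other genes named from this list were Pgls (-0.18 ± 0.09), H6pd (0.14 ± 0.24) and Nnt (0.11 ± 0.30). Tkt and Pgd, of the pentose phosphate pathway, had r of 0.991 and 0.951 to the profile, while G6pdx, the first enzyme of that pathway, had 0.674 and H6pd -0.362. Of 17 tested genes of elongation and desaturation 13 were negative, with a median of -0.12, and Elovl5, an elongase of polyunsaturated fatty acids, had 94.2 ± 6.7 and 127.2 ± 38.4 CPM in endostatin and control (-0.42 ± 0.19). Hacd3 and Hacd4, dehydratases of elongation, had log2 fold changes of -0.23 ± 0.15 and 0.36 ± 0.17, and Fads6 0.41 ± 0.25. In the glucose and glycolysis list 12 of 15 were negative, with a median of -0.07; Pfkp, a phosphofructokinase, had 0.22 ± 0.09, Pfkm -0.22 ± 0.15 and Hk2, a hexokinase, -0.28 ± 0.21. By r, Eno1 (0.960), Pkm (0.929) and Aldoa (0.917) were most like the profile.

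Of 22 regulators, 15 had negative log2 fold changes, with a median of -0.02. Insig1, which holds SREBP in the endoplasmic reticulum and is itself an SREBP target, had 172.2 ± 47.1 CPM in the endostatin group and 283.9 ± 142.1 CPM in the control group (-0.68 ± 0.32, unadjusted p = 0.0702, edgeR adjusted p = 1.00). Trib1 had a log2 fold change of -0.19 ± 0.09, Trib3 0.23 ± 0.32 and Prkaa1, a catalytic subunit of AMP-activated kinase, 0.07 ± 0.09. Of 21 ranked regulators, 2 (Srebf1 and Mlxipl) had r above 0.8 to the profile, against 6.72% of all ranked genes, so the count is near that share. The list's median was 0.237, beside 0.073 over all ranked genes, with Prkab1, a subunit of AMP-activated kinase, lowest at -0.786. Srebf1 had r = 0.919, at 364.7, 390.7, 245.4 and 152.7 TPM in endostatin 1 to 4 and 436.6, 288.7, 258.0 and 361.2 TPM in control 1 to 4. Mlxipl had r = 0.90, at 110.4, 137.3, 84.6 and 53.7 TPM in endostatin 1 to 4 and 112.2, 88.6, 88.2 and 115.5 TPM in control 1 to 4. These values sum all transcripts of each gene, so the isoforms of Srebf1 and Mlxipl are not separated here.

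Markers of cell types were read beside these values, since in bulk tissue fewer cells of a type and less RNA per cell cannot be told apart. The 24 adipocyte markers, all detected, summed to 70545, 76435, 79104 and 73449 TPM in endostatin 1 to 4 and to 79396, 86424, 46375 and 93005 TPM in control 1 to 4. The sum was lowest in control 3. Car3 and Cfd, at 16934 and 20666 TPM in endostatin 4, make up much of it. Single markers differed. In endostatin 4 Lep (231.3 TPM), Npr3 (104.6 TPM), Lpl (2562 TPM), Plin1 (1998 TPM) and Gpd1 (128.6 TPM) were the lowest of their group. So were Car3, Retn, Lipe, Slc2a4, Cd36, Ghr and Ebf2. Cfd and Cidec (4734 TPM) were the highest of theirs, as were Plin4, Pnpla2, Acvr1c and Cidea. The remaining markers of the list were neither lowest nor highest there. The part of adipocyte content in the lipogenic values was not tested. The median r of 23 adipocyte markers to the profile was 0.284, beside 0.073 over all ranked genes, with Gpd1, which supplies glycerol phosphate, highest at 0.955 and Lpl at 0.781.

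Fibroblast and macrophage markers had their highest sums in endostatin 4. The 12 fibroblast and progenitor markers summed to 3443, 3074, 3957 and 5610 TPM in endostatin 1 to 4 and to 2575, 3574, 4112 and 2693 TPM in control 1 to 4, and 12 of 12 had negative r to the profile (median -0.767) and positive log2 fold changes (median 0.25), with 0 called. The 12 macrophage markers summed to 1212, 1291, 2095 and 2146 TPM in endostatin 1 to 4 and to 975.2, 1438, 1092 and 1189 TPM in control 1 to 4, with a median r of -0.682 over 11 ranked genes and 11 of 12 log2 fold changes positive (median 0.38), 0 called. Their part in the lipogenic values was not tested. Endothelial markers summed to 613.8 to 658.4 TPM in the endostatin group and 513.3 to 653.4 TPM in the control group.

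Transcripts of neighbouring organs differed between libraries. Oviduct and uterus markers summed to 113.4 to 168.5 TPM in 6 libraries, and stood at 728.4 TPM in endostatin 4 and 1136 TPM in control 3. Each of the 13 was above 0 in some library. Ltf and Wfdc2 were highest of them in endostatin 4 (298.3 and 173.7 TPM), and Wfdc2 and Msx1 in control 3 (269.9 and 162.4 TPM). In endostatin 4 Ovgp1 (0.72 TPM) and Foxj1 (0 TPM) were the lowest of their group, and Esr1 (98.4 TPM) and Pgr (5.08 TPM) lay within it. The remaining markers were the highest of their group there. In control 3 every marker of the list was the highest of its group. Skeletal muscle markers summed to 125.9 to 261.1 TPM in the endostatin group and 116.6 to 616.9 TPM in the control group, highest in control 4. Of 12 mammary markers 4 were at 0 in every library, the milk protein genes Csn1s1, Csn2 and Wap and the gland gene Glycam1, and the sum reached 150.4 TPM in endostatin 4 and 173.4 TPM in control 3. Krt18 and Muc1 were highest of them in endostatin 4 (66.2 and 51.3 TPM), and Krt18 and Epcam in control 3 (103.7 and 49.6 TPM). Epcam is also in the oviduct and uterus list. The remaining mammary markers, Csn3, Lalba, Elf5, Krt5 and Krt14, stood at 1.41 TPM or less in every library, so the sum does not show mammary gland. Brown fat markers summed to 82.3 to 293.0 TPM in the endostatin group and 167.3 to 509.0 TPM in the control group. Hepatocyte markers (19 of 20 in the files) summed to 2950 to 5828 TPM in the endostatin group and 2106 to 6255 TPM in the control group, most of it Cyp2e1 and Rbp4, which fat also expresses; the log2 fold changes of 17 of 19 were above 0, their median was 3.64, and 0 passed edgeR's test. The hepatocyte transcript Alb stood at 194.2, 257.0, 17.2 and 487.4 TPM in endostatin 1 to 4 and at 88.6, 51.0, 10.0 and 18.3 TPM in control 1 to 4. The part of any of these markers in the lipogenic values was not tested. Mesothelial markers summed to 298.0 to 621.9 TPM in the endostatin group and 281.4 to 695.3 TPM in the control group. Without control 3 and endostatin 4, the 10 genes gave 0 calls in edgeR, with a log2 fold change of -1.11 for Acacb (unadjusted p = 0.00078, edgeR adjusted p = 0.471, the lowest adjusted p of the 10 genes in any alternative), 0.40 for Scd2, 0.22 for Acly and a median of -0.19.

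The share held by the main transcript differed between the genes. Thrsp-201 held 96.6% to 98.6% of the TPM of Thrsp, the main Slc25a1 transcript 87.1% to 95.7% and the main Scd2 transcript 89.1% to 100%, while Acly-201 held 40.2% to 54.7% and Acaca-201 53.9% to 58.1%. For Acacb the share of the main transcript, Acacb-202, did not overlap between groups: it was 66.8%, 65.2%, 68.1% and 65.7% in endostatin 1 to 4, against 86.6%, 81.4%, 85.8% and 82.8% in control 1 to 4. Acacb-201 had 7.02, 9.51, 1.32 and 0 TPM in endostatin 1 to 4 and was listed at 0 in the 4 control libraries. Acacb-205, a short model, held 18.6%, 12.8%, 24.5% and 30.4% in endostatin 1 to 4, against 7.58%, 14.0%, 8.68% and 13.6% in control 1 to 4.

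This difference was seen after the values were known and has no test of its own. Of 20 transcripts of 8 members compared, with a mean share between 5% and 95%, it was the 1 whose groups did not overlap; over all genes 2.19% of 27896 transcripts did not overlap, the background against which 1 of 20 is read. In GENCODE, Acacb-201 and Acacb-202 share 50 identical exons of 52 and 53, and Acacb-202 has in addition a first exon of 291 bases that begins 18983 bases upstream, so most of their sequence is shared. The Acacb start region printed with the others begins 250 bases before the start of Acacb-201. In absolute level Acacb-202 stood at 38.5, 56.8, 35.3 and 88.3 TPM in endostatin 1 to 4 and 107.5, 98.0, 58.6 and 93.6 TPM in control 1 to 4, and there the groups overlapped.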

How the data were processed

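RNA of white adipose tissue was sequenced in 8 libraries, 4 per group and 2 of each group per batch. Libraries were rRNA-depleted and stranded (dUTP), per the labels' protocols. Each deposited table gives, per transcript, an estimated count, TPM and effective length that the authors obtained with Salmon on build GRCm39, per the submitters' processing notes; no version is given there. Of 115620 transcripts, 113710 (98.35%) were matched by identifier, without version, to GENCODE M21, used for names, biotypes and exon structure only. Estimated counts were added up by gene, then rounded to whole numbers. Genes were filtered with filterByExpr, scaled by TMM and tested with edgeR 4.0.16 (R 4.3.3), two-sided, with batch as a term and Benjamini-Hochberg adjustment over all tested genes at 0.05; an interaction model gave within-batch values. Log2 CPM used a prior count of 2. Correlations used exact permutation over 8 libraries. DESeq2 1.42.0, limma 3.58.1 (voom), other scalings and filters, length offsets, a replicate block and leaving out libraries were alternatives. A count of 0 allows up to 3 counts, 0.126 to 0.19 CPM in a library, for counting error only. The members, lists and tests were chosen with earlier results of these data known. All members are named; lists name up to 2 genes per direction with the smallest p, and the likeness rule names the 10 highest and 4 lowest genes; others were named after their values were seen, and some genes the rule names are not reported here. Replicate numbers were not treated as pairs in the main fit. Files were one library each, and promoter sequences are from RefSeq, build GRCm38.p6.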

Additional observations from a re-analysis of the deposited data

Results flagged for a closer look

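In endostatin 4, Scd2 stood at 96.5 CPM, against 464.2 to 551.9 CPM in endostatin 1 to 3, and its gap to the nearest library was 0.901 of the group's range on the log2 scale. In the same library Thrsp stood at 358.4 CPM, against 1136 to 1348 CPM in endostatin 1 to 3, with a gap of 0.871 of the range. Each value lies farther from the other libraries of its group than a test for a single outlying value allows; chance gives this in about 1 in 20 groups, and 20 groups were examined (10 genes in 2 groups).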

How the results depend on the processing

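The 10 genes gave 0 calls between endostatin and control in each of 20 alternatives, and the direction of Fasn, Acacb, Me1, Thrsp and Slc25a1 was negative in each. Among all genes the count of 0 became 4 with DESeq2 and 1 with limma-voom and sample quality weights. Directions turned for Scd2 with sample quality weights (0.12), without control 3 and endostatin 4 (0.40) and without control 1 and control 4 (0.00), for Acly in those last settings (0.22 and 0.08), and without control 1 and control 4 for Scd1 (0.35), Acaca (0.01) and Elovl6 (0.05). Leaving out each library in turn gave log2 fold changes of -0.59 to 0.27 for Scd2 (0.05 without control 3) and -0.87 to 0.14 for Acly, a median over the 10 genes of -0.83 to -0.12, a median r over the 45 pairs of 0.75 to 0.93, and 0 calls for endostatin and for the interaction. The count of 6 genes called between batches was 2 with library size only, 11 with no low-count filter, 171 with DESeq2, 10 with limma-voom, 27 without control 3 and endostatin 4, 0 without control 1 and control 4, and 0 to 18 when each library was left out (0 without control 1, control 2, endostatin 2 or endostatin 3, 3 without endostatin 1, 18 without endostatin 4); 0 of the 10 were among them. The interaction count of 0 was 26 with DESeq2. The difference in the genes' share of counts, -1.24 percentage points, was -2.18 to 0.05 when each library was left out (0.05 without endostatin 4 or without control 1) and 0.79 without control 1 and control 4. The median of the 10 log2 fold changes was -0.34 with no batch term and -0.02 without control 1 and control 4. The causes were not tested. With the replicate number as a block, the 10 genes gave 0 calls; Fasn had a log2 fold change of -0.69. The deviations of same-numbered libraries from their group means correlated at 0.211, 0.144, -0.073 and -0.295 for numbers 1 to 4. Each value compares a single library per group, so it cannot decide whether the samples were paired by design.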

Other observations

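Acly and Acaca each had a short transcript model that held a larger share of their gene in endostatin 4, where the genes were lowest. Acly-204 (772 bases) held 17.0% of Acly TPM there and 1.87% to 4.40% in the other 7 libraries, and Acaca-206 (431 bases) held 22.7% of Acaca TPM against 7.77% to 15.6%. Acaca-202, a long transcript, held 2.35% of Acaca TPM in endostatin 4 and 9.02% to 16.1% elsewhere. The 3 intron-retaining models of Fasn held 6.53%, 7.83%, 2.17% and 6.53% of its TPM in endostatin 1 to 4, and 5.53%, 7.52%, 2.65% and 3.22% in control 1 to 4; in batch 1 the share was 5.53% or more in each library, and in batch 2 endostatin 4 alone exceeded 3.22%. Short models share sequence with the long ones, so these shares depend on how reads were divided.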
